A study of Mus musculus with 12 samples.

Results

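ATF4 is the transcription factor at the centre of the integrated stress response. The genes described here are Atf4 itself and 40 genes listed as its targets or as other parts of that response. They were taken from the deposited table by gene symbol, by a list of transcription factors, feedback regulators, secreted factors, enzymes of amino acid and one-carbon metabolism and amino acid transporters. All 41 symbols were found among 32544 rows, and 40 of them were among the 14279 genes that passed a filter on low counts. Cbs, which makes cystathionine from homocysteine, had at most 4 counts in a library and was not tested.

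The recipient cells in every group were 3T3, a mouse fibroblast line. Untreated cells received no vesicles. The other groups received, for 24 h, extracellular vesicles (membrane-bound particles shed by cells, EVs in the plots) of MDA-MB-468, a human breast cancer line. The donors were control cells (shCon), cells with CRIPTO knocked down (shCr) or cells overexpressing CRIPTO (CrOE), a surface protein that acts with receptors of the TGF-beta family. Each of the 4 groups had 3 libraries. By its name shCon is the control for knockdown, and no group is a separate control for overexpression. Effects of the donor construct apart from CRIPTO were not tested. The vesicle dose, whether a donor line was 1 clone, and whether replicates were separate cultures are not given in the sources used here, so the p-values measure only the spread between these libraries, which may be technical. The CrOE columns carry only the name of the protein and were matched by elimination, and every CrOE value rests on that match. Whether anything besides the labelled treatment sets these libraries apart was not tested.

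In the integrated stress response, kinases that sense unfolded protein, missing amino acids, double-stranded RNA or heme shortage phosphorylate the initiation factor eIF2. General protein synthesis then falls, while the Atf4 mRNA is translated more, because short reading frames ahead of its coding sequence are bypassed. ATF4 protein pairs with C/EBP and other bZIP factors on composite DNA elements and switches on genes for amino acid uptake, amino acid synthesis, mitochondrial folate metabolism and feedback control of translation. An mRNA level of Atf4 is therefore not a measure of ATF4 protein, which these libraries do not report.

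Total counts ran from 25959912 to 37773847 per library, and Pearson's r between replicates was 0.986 to 0.994 over genes, which are not independent replicates. Levels are given as CPM, counts relative to the library's total, scaled by TMM, a method that assumes that most genes do not change; against untreated cells 36.7% of genes were called higher and 37% lower after CrOE vesicles, so those comparisons do not meet that assumption. A call is an adjusted p under 0.05, from edgeR (quasi-likelihood test) with the Benjamini-Hochberg method over all tested genes. The 10 fibroblast markers were all tested; they summed to 19252 to 20746 CPM in untreated libraries, 24430.5 to 24766 with shCon, 15102 to 17255 with shCr and 8470.01 to 8847 with CrOE vesicles, where 9 of the 10 were called lower than in untreated cells. The epithelial marker Epcam was at 0 in every library, and 10 epithelial markers together reached at most 3.58 CPM. Leukocyte markers summed to 48.6 to 59.3 CPM in untreated libraries and 81.996 to 92.5 with shCon vesicles. With shCr vesicles they summed to 129 to 193 CPM and with CrOE vesicles to 4.57 to 5.99. Lyz2 made up most of these sums except after CrOE vesicles, where mean Cd68 (3.05 CPM) exceeded mean Lyz2 (1.25 CPM). Endothelial markers, led by Vwf, summed to 2.21 to 3.15 CPM in untreated libraries, 5.48 to 6.197 and 4.23 to 5.57 with shCon and shCr vesicles, and 17.4 to 20.2 after CrOE vesicles. Adipocyte markers summed to 34.4 to 40.4, 19.7 to 20.04, 19.4 to 25.2 and 3.84 to 4.27 CPM in the same order. The part of these shifts in the results below was not tested, and fewer cells of a type cannot be told apart from less RNA per cell in bulk RNA.

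The element through which ATF4 acts was looked for in the promoters, since it is the feature the genes could share beyond their function. RefSeq promoter windows of GRCm38.p6, 250 bases before to 50 bases after an annotated start, were matched by symbol for 35 of the 41 genes; the coordinates given are those of that build, while the submitters' processing notes name mm39. The letters TGATGNAA, the core of the ATF4 and C/EBP composite element, occurred on either strand in windows of 11 of these 35 genes (31.4%). Among all genes with a window they occurred in 4.51% of 27025, among the tested genes in 2.83% of 10225, and in 3.97% of all 32851 windows. The cyclic AMP response element TGACGTCA, which reads the same on both strands, never shared a window of these genes with the composite letters and occurred in 1 of the 35 genes (Ppp1r15a), against 3.51% of the tested genes, 2.03% of all genes and 1.79% of all windows. The 11 genes were Atf3, Nupr1, Trib3, Chac1, Vldlr, Asns, Got1, Pck2, Pycr1, Slc1a4 and Slc7a11; none of the 5 one-carbon genes with a window was among them. A match is a string of letters in a window and not a measured binding site. Because the genes were listed as ATF4 targets, the larger share among them may follow from that choice and is not a result of these libraries. The match of Slc1a4 crosses the RefSeq start and that of Trib3 lies after it, so neither is shown, though both are counted above. The stretches below are shown because they hold the matched letters. Each lies upstream of the RefSeq start and is written 5′ to 3′ on the gene's strand, with the matched letters in capitals.
Asns (chr6:7693210-7693258, minus strand): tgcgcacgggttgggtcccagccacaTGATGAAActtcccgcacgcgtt
Atf3 (chr1:191183410-191183469, minus strand): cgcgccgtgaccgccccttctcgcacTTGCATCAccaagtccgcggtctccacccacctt
Chac1 (chr2:119351023-119351082, plus strand): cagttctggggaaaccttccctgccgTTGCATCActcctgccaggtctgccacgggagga
Got1 (chr19:43524674-43524733, minus strand): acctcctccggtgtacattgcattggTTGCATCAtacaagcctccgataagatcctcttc
Nupr1 (chr7:126625547-126625606, minus strand): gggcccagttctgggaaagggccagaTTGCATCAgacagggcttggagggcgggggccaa
Pck2 (chr14:55540137-55540196, plus strand): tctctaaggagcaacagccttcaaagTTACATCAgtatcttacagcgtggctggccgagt
Pycr1 (chr11:120643818-120643877, minus strand): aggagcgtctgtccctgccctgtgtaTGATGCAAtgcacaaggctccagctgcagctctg
Slc7a11 (chr3:50443627-50443705, minus strand): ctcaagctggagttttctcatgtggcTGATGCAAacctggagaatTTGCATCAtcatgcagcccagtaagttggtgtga
Vldlr (chr19:27216794-27216853, plus strand): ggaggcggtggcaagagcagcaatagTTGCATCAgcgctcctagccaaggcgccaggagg
Ppp1r15a, cyclic AMP response element (chr7:45526269-45526306, minus strand): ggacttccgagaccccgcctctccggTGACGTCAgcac

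Slc7a11 held 2 composite matches, on opposite strands, starting 66 and 47 bases before the start. The 11 genes with a composite match had a median log2 fold change against untreated cells of 0.99 after shCon vesicles, 0.70 after shCr vesicles and 1.67 after CrOE vesicles. For the 23 tested genes whose windows held none, the medians were 0.63, 0.55 and 1.56. The ranges of the groups overlapped in each comparison, from 0.579 to 3.65 with a match and from 0.016 to 4.08 without one after CrOE vesicles.

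The comparisons with untreated cells ask how fibroblasts given vesicles differed from fibroblasts given none. No group is labelled as given fluid without vesicles, so effects of handling cannot be told apart from those of the vesicles. After shCon vesicles 32 of the 40 tested ATF4 pathway genes were called higher (18% of all 14279 genes were) and 3 lower (20.2% of all genes were). After shCr vesicles 29 were higher (18.4% of all genes) and 2 lower (18.8%). After CrOE vesicles 38 were higher (36.7% of all genes) and 1 lower (37%), so the background in that comparison is high. Median log2 fold changes of the 40 genes were 0.78, 0.61 and 1.66, where the medians over all genes were 0.0069, 0.020 and 0.0078. TMM scaling holds the medians over all genes near 0, so they are largely set by the method. Rises of at least 2-fold were called for 13, 10 and 30 of the 40 genes, against 2.51%, 2.75% and 11% of all genes. These 3 comparisons share the untreated libraries. In 24 of the 40 genes every shCon and shCr library lay above every untreated library and below every CrOE library, an order that 4.6% of all tested genes showed.

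Untreated replicate 2 had the highest level of the untreated libraries in 34 of the 40 genes. Its mitochondrially encoded share was 1.64% of counts, against 0.495% and 0.991% in its replicates. That share was 1.35% to 1.64% in shCon, 0.622% to 1.7% in shCr and 0.693% to 1.44% in CrOE libraries. Its part in the levels was not tested. When untreated replicate 2 was left out, the genes called higher after shCon, shCr and CrOE vesicles numbered 33, 29 and 38. The genes called lower after shCon vesicles were Ddit4, Shmt1 and Mthfd1; leaving out untreated replicate 2, shCon replicate 1 or shCon replicate 2 left 1 of them. After shCr vesicles they were Ddit4 and Mthfd1, and after CrOE vesicles the gene called lower was Slc1a5.

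**Figure D1:**
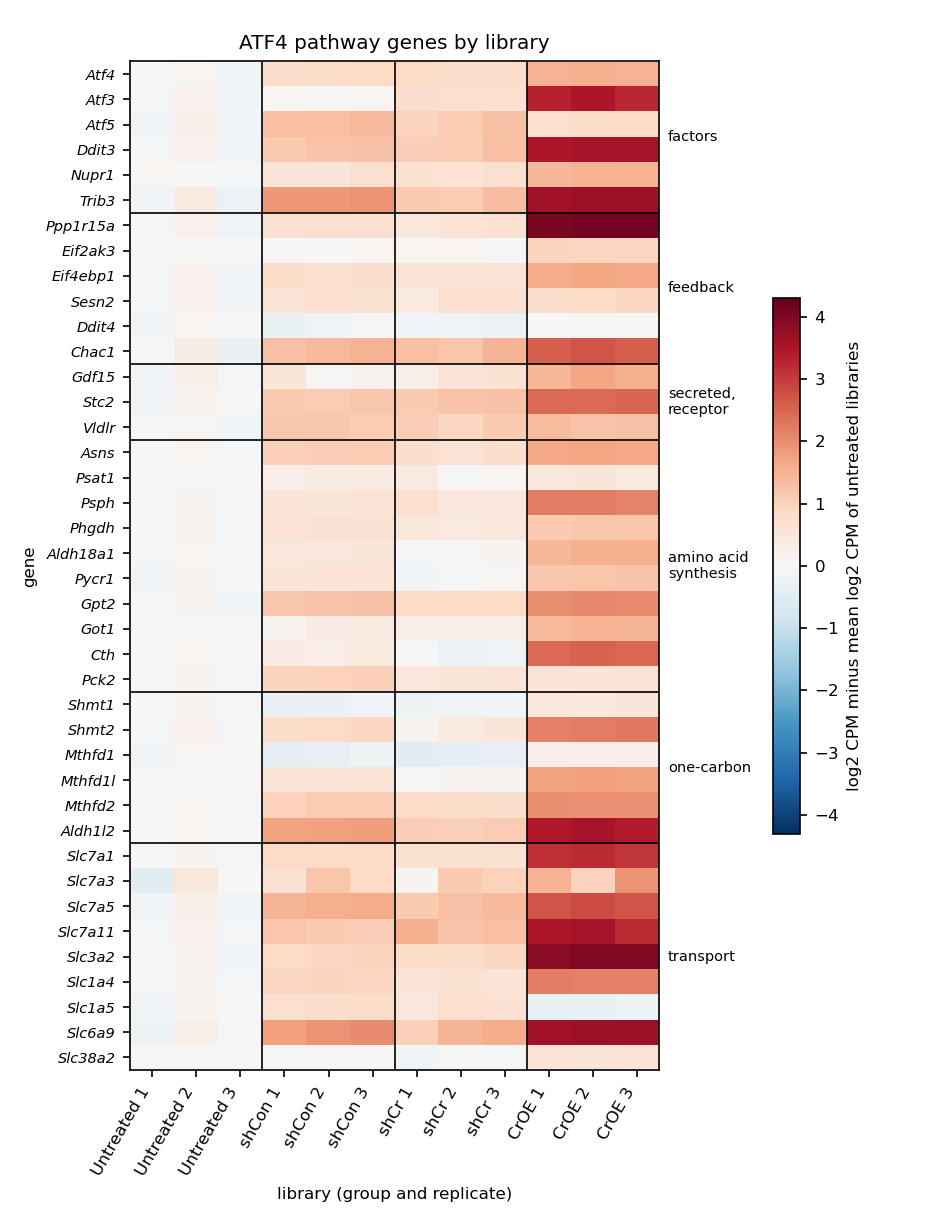
Level of the 40 tested ATF4 pathway genes (vertical axis, grouped by role) in each of the 12 libraries (horizontal axis), as log2 CPM minus the mean log2 CPM of the 3 untreated libraries. Red fills most rows in the shCon and shCr EV columns and deepens in the CrOE EV columns, while Ddit4, Shmt1, Mthfd1 and Slc1a5 are among those with blue cells.

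Atf4 mRNA rose in all vesicle groups. Untreated libraries were at 284, 298 and 255 CPM, shCon libraries at 475, 486 and 503, shCr libraries at 505, 467 and 475 and CrOE libraries at 776, 804 and 792. The libraries formed 3 separate levels, with the shCon and shCr vesicles interleaved in the middle and the CrOE vesicles on top. The log2 fold changes against untreated cells were 0.81 (SE 0.060), 0.79 (SE 0.060) and 1.503 (SE 0.061), with adjusted p of 4.93e-07, 5.34e-07 and 1.29e-10 by edgeR.

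Ddit3 encodes CHOP, a bZIP factor made under prolonged stress. It was at 29.2, 34.5 and 28.4 CPM in untreated libraries, 66.7, 72.3 and 72.7 after shCon vesicles, 63.8, 65.0 and 74.7 after shCr vesicles and 341, 359.6 and 368 after CrOE vesicles. The shCon and shCr libraries overlapped, at log2 rises of 1.20 and 1.14, and the CrOE libraries stood 3.54 above untreated cells (SE 0.088, adjusted p = 1.67e-12, edgeR). Exons of Ddit3 overlap those of Mars on the opposite strand, and whether reads were counted by strand is not given.

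Trib3 encodes a pseudokinase that restrains ATF4 and AKT. Its untreated libraries were at 22.2, 31.7 and 20.3 CPM, with replicate 2 highest. After shCon vesicles it was at 88.9, 89.2 and 93.0 CPM, after shCr vesicles at 52.5, 52.3 and 61.1 and after CrOE vesicles at 299, 318 and 312. No group overlapped another, and the order was untreated, shCr, shCon, CrOE. The log2 fold change after CrOE vesicles was 3.65 (SE 0.14, adjusted p = 5.91e-11, edgeR), and after shCon and shCr vesicles it was 1.87 and 1.16.

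Atf3, a bZIP factor that acts mostly as a repressor, rose after shCr and CrOE vesicles but not detectably after shCon vesicles. It was at 13.6, 16.1 and 12.99 CPM in untreated libraries and 15.0, 14.4 and 14.9 after shCon vesicles, with the libraries overlapping (log2 fold change 0.055, SE 0.083, adjusted p = 0.636, edgeR). After shCr vesicles its libraries were at 23.7, 23.0 and 22.9 CPM, all above both of those groups. After CrOE vesicles they were at 142, 156 and 135 CPM, a log2 fold change of 3.34 (SE 0.081).

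Atf5, a relative of ATF4 that supports mitochondrial stress responses, was highest with shCon vesicles. Untreated libraries were at 169, 226 and 175 CPM, shCon libraries at 459, 462 and 499, shCr libraries at 366, 401 and 450.4 and CrOE libraries at 314, 322 and 339. All vesicle libraries exceeded the untreated ones, but the CrOE libraries lay below every shCon and shCr library. Relative to shCon vesicles its log2 fold change with CrOE vesicles was -0.54 (SE 0.10, adjusted p = 0.000375, edgeR) and relative to shCr vesicles -0.32. The latter was no call without shCr replicate 3 (adjusted p = 0.0616), which left 1 of 2 pathway genes called lower with CrOE than shCr vesicles. Atf5 exons overlap those of Nup62 and Il4i1 on the opposite strand.

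Nupr1, a small stress-induced chromatin protein, rose from 38.4, 36.5 and 34.9 CPM to 52.5, 52.9 and 58.7 after shCon vesicles, 57.0, 55.4 and 58.5 after shCr vesicles and 97.9, 103 and 104 after CrOE vesicles. Its log2 fold changes of 0.58, 0.64 and 1.48 placed both weaker responses side by side, and its shCon and shCr libraries overlapped.

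Among the feedback genes the most extreme was Ppp1r15a, which encodes GADD34, the subunit that directs a phosphatase to eIF2 and so ends the translational block. It was at 27.8, 33.0 and 26.01 CPM in untreated libraries, 45.9, 46.3 and 45.9 after shCon vesicles and 40.1, 43.0 and 45.3 after shCr vesicles. The CrOE libraries were at 472, 498 and 494 CPM. That is a 16.9-fold rise over untreated cells (log2 fold change 4.08, SE 0.084, adjusted p = 4.41e-13, edgeR), the largest of the 40 genes in this comparison. After shCon and shCr vesicles the rise was 0.67 and 0.57 on the log2 scale. Its exons overlap those of Tulp2 on the opposite strand.

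Eif2ak3, which encodes the eIF2 kinase PERK of the endoplasmic reticulum (ER), was at 40.6, 40.3 and 39.99 CPM in untreated libraries, 41.7, 41.1 and 43.1 after shCon vesicles, 42.3, 42.3 and 39.99 after shCr vesicles and 78.7, 77.2 and 77.3 after CrOE vesicles. Only the CrOE difference was a call (log2 fold change 0.95, adjusted p = 6.94e-10, edgeR), and CrOE vesicles were also called higher than shCon vesicles (0.89) and shCr vesicles (0.90).

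Chac1, an enzyme that breaks down glutathione, was at 23.6, 30.3 and 19.5 CPM in untreated libraries, 57.8, 63.0 and 68.7 after shCon vesicles, 59.6, 55.6 and 66.5 after shCr vesicles and 143, 156 and 147 after CrOE vesicles. Every vesicle library exceeded every untreated one. Its log2 fold changes were 1.37, 1.31 and 2.60.

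Inhibitors of mTORC1 and of cap-dependent translation followed 2 courses. Eif4ebp1, an inhibitor of cap-dependent initiation, rose from 119 ± 15.3 to 199 ± 6.62, 179 ± 5.04 and 372 ± 14.3 CPM (SD, n = 3 per group) after shCon, shCr and CrOE vesicles. Sesn2, a leucine sensor that holds mTORC1 down, rose from 69.2 ± 7.37 to 107 ± 4.04, 105 ± 11.2 and 123 ± 5.39 CPM. The levels of Sesn2 after CrOE and shCon vesicles differed by 0.20 on the log2 scale (adjusted p = 0.0501, edgeR), at the threshold. Ddit4, another mTORC1 inhibitor, went against the rest: it was at 64.9, 75.4 and 72.1 CPM in untreated libraries, 58.4, 62.5 and 66.1 after shCon vesicles, 65.0, 62.5 and 59.2 after shCr vesicles and 71.0, 72.7 and 71.0 after CrOE vesicles. Its falls of -0.18 and -0.19 (log2) were calls with overlapping libraries. The fall after shCon vesicles was no call without untreated replicate 2 or 3, shCon replicate 1 or 2, shCr replicate 2 or any 1 CrOE library (adjusted p up to 0.175). The fall after shCr vesicles was no call without untreated replicate 2 or 3, shCon replicate 2, shCr replicate 2 or 3 or any 1 CrOE library (adjusted p up to 0.135), which left 1 pathway gene called lower there. After CrOE vesicles the difference was 0.016 (SE 0.065).

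Secreted products and a receptor were mostly called higher. Stc2, a secreted glycoprotein, was at 6.85, 8.54 and 7.54 CPM in untreated libraries, 16.7, 16.3 and 17.6 after shCon vesicles, 16.8, 17.6 and 18.4 after shCr vesicles and 40.8, 40.8 and 43.2 after CrOE vesicles. Its shCon and shCr libraries overlapped, with log2 fold changes of 1.14, 1.20 and 2.44. Gdf15, a stress cytokine, had at most 235 counts in a library and was at 1.94, 2.40 and 1.95 CPM in untreated libraries, 2.97, 2.16 and 2.31 after shCon vesicles, 2.47, 3.17 and 3.31 after shCr vesicles and 5.58, 6.84 and 6.07 after CrOE vesicles. Its rise was a call after CrOE vesicles (log2 fold change 1.55, SE 0.16). The call after shCr vesicles (0.52) was lost without untreated replicate 1 or 3 or shCr replicate 2 or 3 (adjusted p up to 0.108), and after shCon vesicles there was none (adjusted p = 0.306, edgeR). Vldlr, a lipoprotein receptor, went from 31.7 ± 2.05 to 69.9 ± 1.89, 64.8 ± 5.24 and 76.5 ± 3.32 CPM. Its difference between CrOE and shCon vesicles was 0.13 (SE 0.067, adjusted p = 0.0977, edgeR).

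**Figure D2:**
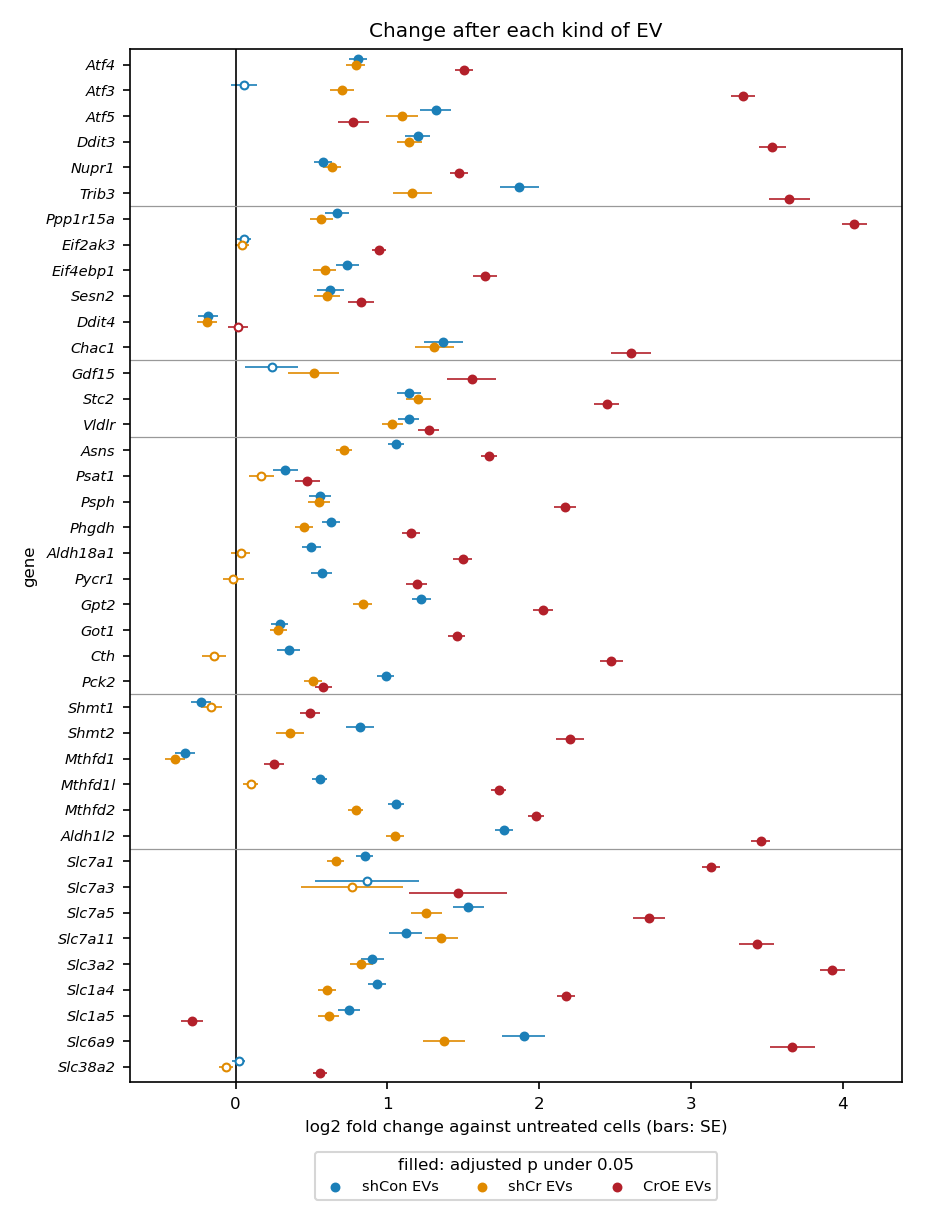
Log2 fold change against untreated cells (horizontal axis, bars are SE) of the 40 tested genes (vertical axis, grouped by role) after shCon, shCr and CrOE vesicles, with filled points for adjusted p under 0.05 by edgeR. CrOE points reach 4.08 for Ppp1r15a, whereas shCon and shCr points stay at or below 1.90; Atf5, Pck2 and Slc1a5 have CrOE points to the left of their shCon points.

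Amino acid synthesis genes were mostly called higher. After shCon vesicles 10 of 10 tested were called higher, after shCr vesicles 6 and after CrOE vesicles 10, with medians of 0.56, 0.37 and 1.48. Asns makes asparagine and is a classical ATF4 target. Its untreated libraries were at 100.1, 108 and 98.5 CPM, shCon libraries at 208, 213 and 217, shCr libraries at 174, 159 and 172 and CrOE libraries at 324, 328 and 323. The 4 groups did not overlap. Its rises on the log2 scale were 1.06, 0.72 and 1.67 (adjusted p = 1.84e-08, 3.54e-07 and 1.28e-11, edgeR).

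The serine pathway runs from Phgdh through Psat1 to Psph. Psph, the last enzyme, was at 23.7, 26.4 and 22.6 CPM untreated, 35.8, 34.9 and 36.3 with shCon, 39.0, 34.1 and 33.5 with shCr and 111, 111 and 106 with CrOE vesicles; its log2 fold change of 2.17 after CrOE vesicles was the largest of the 3. Phgdh, the first, went from 158 ± 13.5 CPM to 244 ± 6.21, 215 ± 5.45 and 351 ± 7.28 after shCon, shCr and CrOE vesicles. Psat1, the middle enzyme, had the smallest rises, from 217 ± 5.37 to 272 ± 7.9996, 244 ± 36.0 and 301 ± 8.70 CPM, and its difference after shCr vesicles was no call (adjusted p = 0.124, edgeR) unless shCr replicate 2 was left out (adjusted p = 0.0425). Of the 31-base stretches in Phgdh transcripts 55.8% also occur in other genes, mainly a processed pseudogene, so its counts are less certain; the exons of Psph overlap those of Cct6a on the opposite strand.

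The proline enzymes rose with shCon and CrOE vesicles and were near untreated levels with shCr vesicles. Aldh18a1, which makes the proline precursor, was at 101, 114 and 109 CPM in untreated libraries, 151, 151 and 155 after shCon vesicles, 102, 111 and 118 after shCr vesicles and 291, 314 and 307 after CrOE vesicles. Pycr1, which completes proline, was at 22.7, 26.8 and 24.4 CPM untreated, 35.2, 37.2 and 36.9 with shCon, 22.5, 24.7 and 25.6 with shCr and 55.0, 56.6 and 57.0 with CrOE vesicles. For both, the shCr libraries overlapped the untreated ones, with log2 fold changes of 0.035 (SE 0.062) and -0.016 (SE 0.070), while those after shCon vesicles were 0.50 and 0.57 and after CrOE vesicles 1.497 and 1.19.

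Cth, which releases cysteine from cystathionine, also overlapped untreated cells after shCr vesicles and had the largest CrOE response of the synthesis genes. Its libraries were at 15.2, 17.2 and 15.97 CPM untreated, 20.7, 19.6 and 21.5 after shCon vesicles, 16.4, 13.4 and 14.1 after shCr vesicles and 87.7, 92.8 and 89.0 after CrOE vesicles. CrOE vesicles gave a log2 fold change of 2.48 (SE 0.077) against untreated cells and 2.62 against shCr vesicles. The transaminases Gpt2 and Got1 rose in all vesicle groups. Gpt2, the mitochondrial alanine transaminase, was at 55.4, 58.8 and 48.7 CPM untreated, 122, 128 and 131 after shCon vesicles, 95.7, 96.4 and 99.0 after shCr vesicles and 216, 227 and 220.2 after CrOE vesicles. Got1, the cytosolic aspartate transaminase, rose little with shCon and shCr vesicles (log2 fold changes 0.29 and 0.28) and by 1.46 after CrOE vesicles, from 74.4 ± 1.39 to 204 ± 8.19 CPM.

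Pck2, the mitochondrial enzyme that makes phosphoenolpyruvate, was highest after shCon vesicles. It was at 133, 148 and 126 CPM in untreated libraries, 263, 271 and 274 after shCon vesicles, 187, 195 and 199.9 after shCr vesicles and 198, 204 and 206 after CrOE vesicles. The untreated and shCon libraries stood apart, and the shCr and CrOE libraries overlapped. CrOE vesicles were lower than shCon vesicles by a log2 fold change of -0.41 (SE 0.057, adjusted p = 2.83e-05, edgeR), and against shCr vesicles the difference was 0.066 (SE 0.057).

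**Figure D3:**
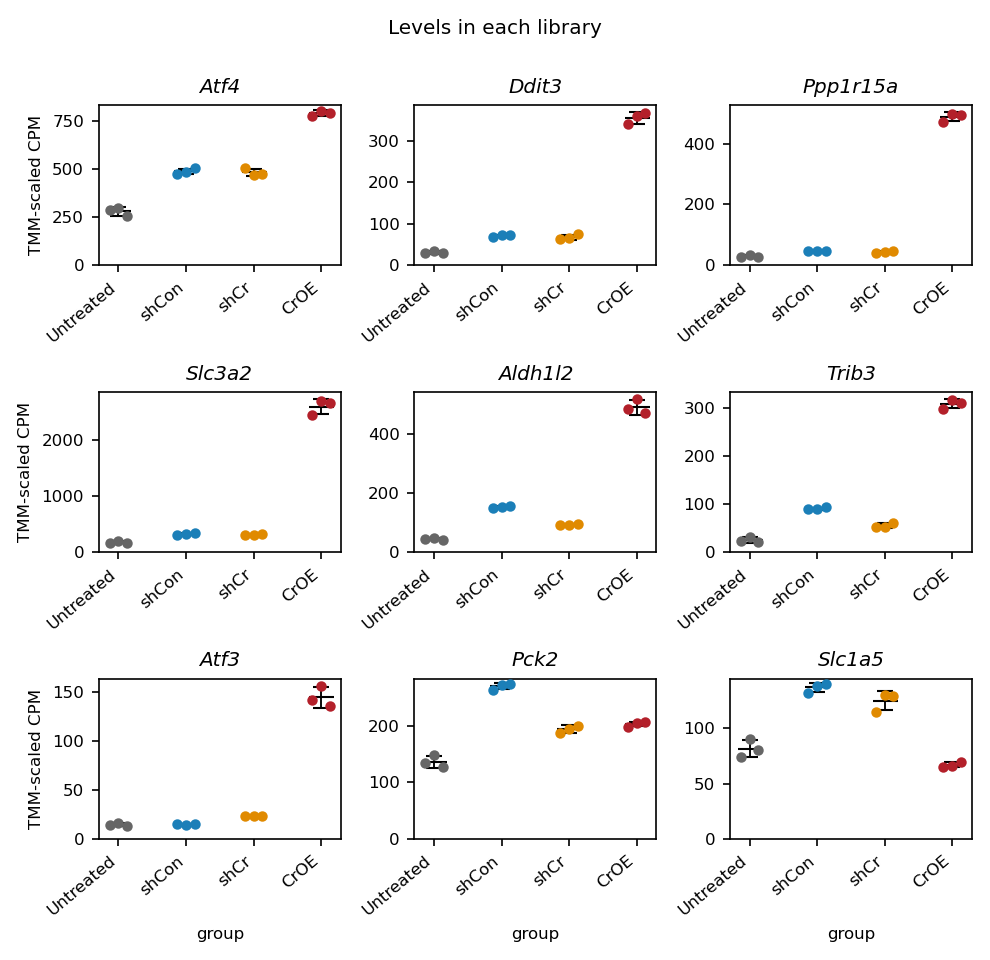
TMM-scaled CPM (vertical axis, linear from 0) of 9 genes in the 3 libraries of each group (horizontal axis), with points for libraries and black bars for mean and SD; the genes were chosen after their values were seen. Atf4 stands on 3 levels, Slc3a2 and Ppp1r15a are far higher after CrOE vesicles, Aldh1l2 and Trib3 are lower after shCr than shCon vesicles, and Pck2 and Slc1a5 are highest after shCon vesicles.

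Of the 6 one-carbon genes 4 were called higher and 2 lower after shCon vesicles, 3 higher and 1 lower after shCr vesicles and 6 higher after CrOE vesicles. The mitochondrial enzymes Shmt2, Mthfd2, Mthfd1l and Aldh1l2, which pass carbon units from serine to formate and carbon dioxide, rose after shCon and CrOE vesicles, while the cytosolic enzymes Shmt1 and Mthfd1 fell after shCon vesicles and rose after CrOE vesicles. Aldh1l2, which oxidises mitochondrial formyl-folate, was at 44.0, 47.6 and 41.8 CPM in untreated libraries, 149, 152 and 154 after shCon vesicles, 92.3, 89.4 and 94.5 after shCr vesicles and 481, 517 and 468 after CrOE vesicles. No group overlapped another. The log2 fold changes were 1.77, 1.05 and 3.46 (SE 0.062 for CrOE vesicles, adjusted p = 1.53e-13, edgeR).

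Mthfd2, the mitochondrial dehydrogenase and cyclohydrolase, was at 49.4, 53.4 and 48.3 CPM untreated, 100.1, 106 and 107 after shCon vesicles, 89.0, 86.3 and 85.9 after shCr vesicles and 199.9, 198 and 197 after CrOE vesicles, again without overlap. Shmt2, which starts the mitochondrial branch by splitting serine, was at 78.0, 95.1 and 77.7 CPM untreated, 142, 146 and 154 with shCon, 93.3, 109.8 and 118 with shCr and 377, 381 and 398 with CrOE vesicles. Its shCr libraries overlapped the untreated ones, and its call there (log2 fold change 0.36, adjusted p = 0.00777, edgeR) was lost when those 2 groups were modelled alone (adjusted p = 0.0654). Mthfd1l, which releases formate, was at 27.2, 28.8 and 29.9 CPM untreated, 41.8, 41.7 and 42.5 with shCon, 30.0, 31.2 and 30.9 with shCr and 93.9, 96.6 and 95.2 with CrOE vesicles, with no call after shCr vesicles (adjusted p = 0.136, edgeR). Exons of Shmt2 and Aldh1l2 overlap opposite-strand genes.

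The cytosolic Mthfd1 was at 44.3, 49.8 and 49.2 CPM in untreated libraries, 35.6, 37.6 and 40.8 after shCon vesicles, 35.1, 35.8 and 37.8 after shCr vesicles and 55.2, 58.8 and 57.0 after CrOE vesicles. Both lower groups lay wholly below untreated cells and the CrOE group wholly above, with log2 fold changes of -0.33, -0.40 and 0.25. Shmt1, the cytosolic partner of Shmt2, was at 24.1, 27.2 and 23.8 CPM untreated, 20.7, 20.7 and 22.7 with shCon, 21.6, 22.7 and 22.8 with shCr and 35.3, 33.9 and 36.2 with CrOE vesicles. Its fall after shCon vesicles (-0.23) was no call without untreated replicate 2, shCon replicate 1 or shCon replicate 2 (adjusted p up to 0.0793), and its rise after CrOE vesicles was 0.49.

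Amino acid transporters were mostly called higher. After shCon and shCr vesicles 7 of 9 were called higher, and after CrOE vesicles 8 were higher and 1 lower, with medians of 0.90, 0.77 and 2.72. Slc3a2 is the heavy chain (CD98) that carries several light-chain exchangers to the surface. It was at 165, 190.1 and 156 CPM in untreated libraries, 305, 317 and 333 after shCon vesicles, 294, 296 and 318 after shCr vesicles and 2450.1, 2693 and 2656 after CrOE vesicles. The shCon and shCr libraries overlapped, and CrOE vesicles gave a 15.3-fold rise over untreated cells (log2 fold change 3.93, SE 0.082, adjusted p = 4.61e-13, edgeR).

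The light chains Slc7a5 and Slc7a11, both in the ATF4 list, rose too. Slc7a5, the large neutral amino acid exchanger, was at 85.6, 111 and 85.1 CPM untreated, 258, 274 and 285 after shCon vesicles, 205, 222 and 247 after shCr vesicles and 603, 646 and 613 after CrOE vesicles. Slc7a11, the cystine importer, was at 32.0, 38.2 and 31.9 CPM untreated, 77.6, 74.1 and 70.1 with shCon, 98.5, 79.7 and 83.1 with shCr and 378, 409 and 317 with CrOE vesicles. Their log2 fold changes after CrOE vesicles were 2.72 and 3.43. For Slc7a11 every shCr library was above every shCon library, without a call (0.24, adjusted p = 0.21, edgeR).

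Slc6a9, the glycine transporter GlyT1, was at 25.96, 35.4 and 29.1 CPM in untreated libraries, 102, 113 and 122 after shCon vesicles, 61.3, 81.9 and 90.7 after shCr vesicles and 363, 394 and 395 after CrOE vesicles. It had the largest rise of the 40 genes after shCon vesicles (log2 fold change 1.90, SE 0.14), next to Trib3, and rose by 3.67 after CrOE vesicles. Its exons overlap those of B4galt2 on the opposite strand. Slc7a1, the arginine and lysine carrier, was at 47.2, 52.3 and 45.7 CPM untreated, 87.8, 88.0 and 86.2 with shCon, 76.2, 76.5 and 76.9 with shCr and 424, 445 and 405 with CrOE vesicles, a log2 fold change of 3.13 after CrOE vesicles. Slc1a4, which carries alanine, serine and cysteine, was at 46.0, 52.9 and 44.8 CPM untreated, 91.0, 92.5 and 90.4 with shCon, 71.5, 75.6 and 71.3 with shCr and 218, 216 and 215 with CrOE vesicles, with no overlap between groups.

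Slc1a5, the glutamine and neutral amino acid carrier ASCT2, reversed between vesicle types. It was at 74.4, 90.1 and 80.6 CPM in untreated libraries, 133, 139 and 140.1 after shCon vesicles, 115, 131 and 129 after shCr vesicles and 65.3, 66.3 and 69.5 after CrOE vesicles. The CrOE libraries were below every untreated library and the other vesicle libraries above. Relative to untreated cells it differed by 0.75, 0.61 and -0.29 (adjusted p = 5.02e-06, 2.42e-05 and 0.00296, edgeR), and CrOE against shCon vesicles differed by -1.03.

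Slc38a2, a carrier of small neutral amino acids that cells induce when these run short, was at 664 ± 7.72 CPM untreated, 674 ± 14.8 after shCon vesicles and 635 ± 16.5 after shCr vesicles (SD, n = 3), differences that were no calls, and at 977 ± 28.1 after CrOE vesicles (log2 fold change 0.56). Slc7a3, another cationic carrier, was scarce, at 0.696, 1.37 and 0.993 CPM untreated, 1.54, 2.26 and 1.77 after shCon vesicles, 1.06, 2.15 and 1.96 after shCr vesicles and 2.79, 1.95 and 3.71 after CrOE vesicles. Its rise after CrOE vesicles was a call (log2 fold change 1.47, SE 0.32). Its rise after shCon vesicles (0.87, adjusted p = 0.0619, edgeR) became one without untreated replicate 2 or shCr replicate 1 (adjusted p 0.0279 to 0.0469 over the 6 settings that called it), and its rise after shCr vesicles (0.77) without shCr replicate 1 (adjusted p = 0.0195).

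The comparison of shCr with shCon vesicles asks what CRIPTO knockdown in the donor cells changed. Atf4 itself did not move detectably (505, 467 and 475 CPM after shCr vesicles against 475, 486 and 503 after shCon vesicles; log2 fold change -0.017, SE 0.059, adjusted p = 0.905, edgeR). Of the 40 genes 13 were called lower with shCr vesicles (3.51% of all tested genes were) and 1 higher (5.22% of all genes). The median of the 40 genes was -0.12, against 0.0043 over all genes, a value that TMM scaling holds near 0. All shCr libraries lay below all shCon libraries in 21 of the 40 genes (12.5% of all genes) and above them in 2 (15.5%).

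The 13 genes were mostly metabolic: 6 of 10 for amino acid synthesis (Asns, Aldh18a1, Pycr1, Gpt2, Cth and Pck2), 4 of 6 for one-carbon metabolism (Shmt2, Mthfd1l, Mthfd2 and Aldh1l2), 2 of 9 transporters (Slc1a4 and Slc6a9) and, among 6 factors, Trib3. Aldh1l2 showed the largest difference, at 92.1 ± 2.55 against 152 ± 2.69 CPM (mean ± SD over 3 libraries), a log2 fold change of -0.72 (SE 0.057, adjusted p = 1.2e-05, edgeR). Trib3 followed at 55.3 ± 5.05 against 90.4 ± 2.28 CPM (-0.71, adjusted p = 0.00337, edgeR), then Pycr1 at 24.3 ± 1.597 against 36.4 ± 1.11 CPM (-0.58, adjusted p = 0.000226, edgeR). The differences of Cth (-0.49), Pck2 (-0.48), Aldh18a1 (-0.47), Shmt2 (-0.46) and Mthfd1l (-0.45) were between those of Aldh1l2 and Gpt2 in size. Cth itself was called lower than in untreated cells when shCr replicate 1 was left out (adjusted p = 0.0151).

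Smaller falls were those of Gpt2 (-0.39), Asns (-0.34), Slc1a4 (-0.33) and Mthfd2 (-0.27). The fall of Slc6a9 (-0.53, SE 0.13, adjusted p = 0.0284, edgeR) was no call without shCon replicate 2, shCon replicate 3 or shCr replicate 2, or when just these 2 groups were modelled (adjusted p 0.0534 to 0.116). The gene called higher was Atf3 (0.65, SE 0.080, adjusted p = 0.000318, edgeR), at 23.2 ± 0.466 against 14.8 ± 0.311 CPM. Ddit3 (-0.057, SE 0.080) and Chac1 (-0.059, SE 0.12) did not move detectably. Among all genes 1247 were called in this comparison, and 688, 632 and 666 without shCon replicate 1, 2 or 3, while the pathway genes called lower then numbered at least 12. Without untreated replicate 2 that number was 16, with Phgdh (-0.18), Slc7a1 (-0.19) and Slc7a5 (-0.28) added, and without shCr replicate 1 Psat1 (-0.16) was called (adjusted p = 0.00132).

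**Figure D4:**
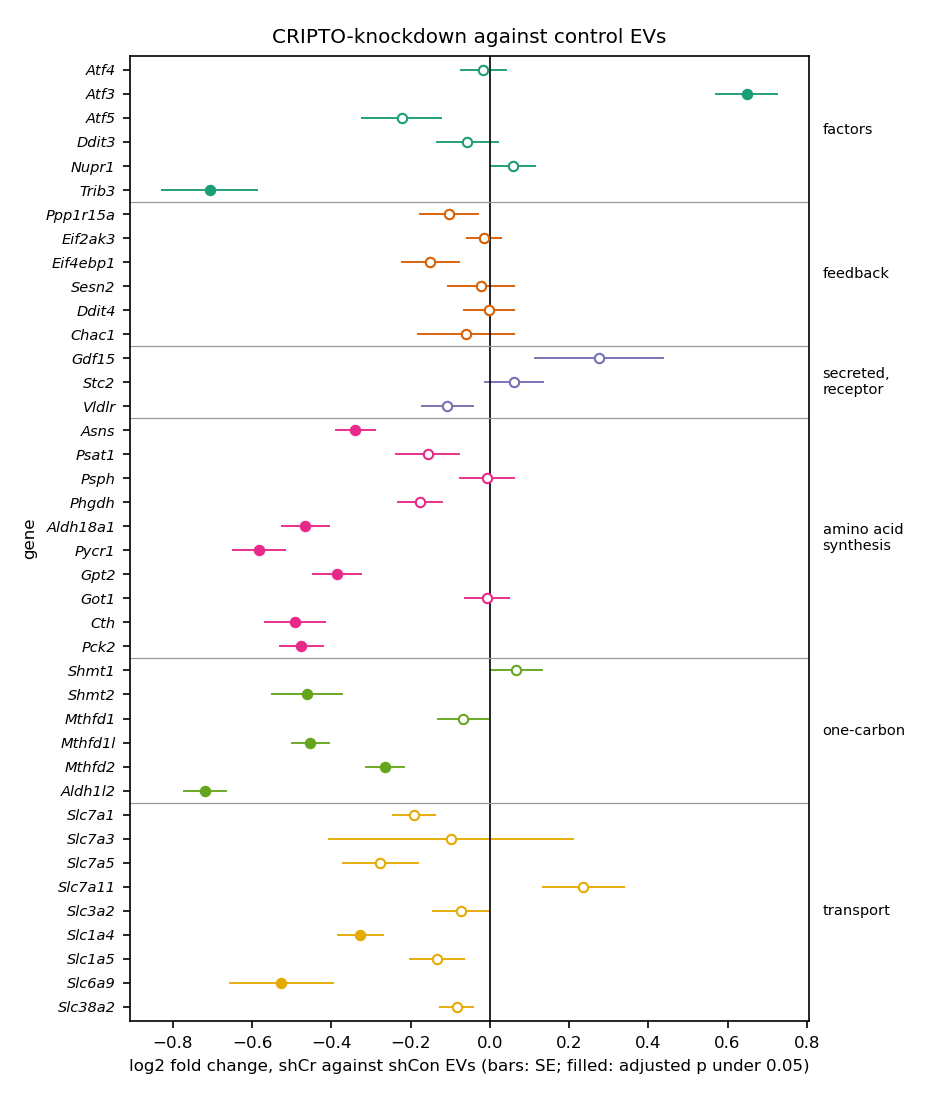
Log2 fold change of the 40 tested genes between shCr and shCon vesicles (horizontal axis, bars are SE), by gene and role (vertical axis), with filled points for adjusted p under 0.05 by edgeR. The filled points on the left are 12 metabolic or transport genes and Trib3, and the 1 on the right is Atf3 at 0.65, while Atf4 lies at -0.017.

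Between CrOE and shCon vesicles, 33 of the 40 genes were called higher (36.5% of all genes were) and 3 lower (36.1%). Between CrOE and shCr vesicles, 37 were higher (36.9%) and 2 lower (37%). The medians were 0.96 and 1.19, and 19 and 24 genes were at least 2-fold higher, against 9.31% and 11% of all genes. Atf4 was higher by 0.70 and 0.71 on the log2 scale. The largest differences between CrOE and shCon vesicles were those of Ppp1r15a (3.41), Atf3 (3.29), Slc3a2 (3.03), Ddit3 (2.33), Slc7a11 (2.31), Slc7a1 (2.28) and Cth (2.13). Against shCr vesicles the same measure was 3.51, 2.64, 3.10, 2.39, 2.08, 2.47 and 2.62 for these genes. Atf5, Pck2 and Slc1a5 were called lower than with shCon vesicles, and Atf5 and Slc1a5 lower than with shCr vesicles. Ddit4 was called higher than with either (0.20 and 0.20), but not without shCon replicate 1 (adjusted p = 0.0843) or shCr replicate 3 (adjusted p = 0.0554) respectively. Against shCr vesicles Sesn2 (0.22) was no call without shCr replicate 1 or CrOE replicate 2 or 3 (adjusted p up to 0.109). Slc7a3 (0.70, overlapping libraries) was none without untreated replicate 3, any 1 shCon library, shCr replicate 1 or 3 or CrOE replicate 1 or 3 (adjusted p up to 0.221). Against shCon vesicles Sesn2 became a call without untreated replicate 1 or 2, shCr replicate 1 or 3 or CrOE replicate 1, Slc7a3 (0.60) without shCr replicate 1 or CrOE replicate 2, and Psat1 (0.15) without shCr replicate 1.

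Related genes were counted from lists. The cytosolic aminoacyl-tRNA synthetases charge tRNAs, and several are known ATF4 targets. Of 20 tested, 13 were called higher and 3 lower after shCon vesicles (18% and 20.2% of all genes), 10 higher and 4 lower after shCr vesicles (18.4% and 18.8%), and 18 higher after CrOE vesicles (36.7%). The counts of lower synthetases are at or below the shares of all genes. Aars had the largest rise after shCon vesicles (log2 fold change 0.78, from 561 ± 48.8 to 967 ± 37.9 CPM), and Wars after CrOE vesicles (2.79, to 350.2 ± 11.3 CPM). Between shCr and shCon vesicles 7 were lower (3.51% of all genes), led by Eprs (-0.39) and Vars (-0.38). That count was 4 when any 1 shCon library was left out. The counts called lower than in untreated cells were 1 of 3 after shCon vesicles without untreated replicate 3 or shCon replicate 1, and 2 of 4 after shCr vesicles without untreated replicate 3.

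For the other branches of the unfolded protein response, the counts after shCon and shCr vesicles were near the shares of all genes. Of 18 sensors and targets of IRE1 and ATF6, 4 were called higher and 4 lower after shCon vesicles (18% and 20.2% of all genes) and 5 higher and 4 lower after shCr vesicles (18.4% and 18.8%), with medians of 0.066 and -0.026; without shCr replicate 1 the 4 lower after shCr vesicles became 7. After CrOE vesicles 18 of 18 were higher (36.7% of all genes), with a median of 3.115, and 17 of 18 were higher than after shCon vesicles (36.5%). Hspa5, the main ER chaperone (BiP), was at 658 ± 14.3 CPM in untreated cells, 604 ± 6.27 after shCon vesicles, 626 ± 68.6 after shCr vesicles and 11731 ± 347 after CrOE vesicles (SD, n = 3). The largest rises after CrOE vesicles were those of Sdf2l1 (4.56), Hyou1 (4.51) and Hspa5 (4.16), all folding factors of the ER. After shCon vesicles Ern1, the sensor IRE1, rose by 0.63 and Atf6 by 0.49, while Sdf2l1 (-0.46) and Pdia6 (-0.40), a disulfide isomerase, fell.

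The machinery upstream of ATF4 was counted in the same way. The list of 17 genes held eIF2 kinases, eIF2, eIF2B, the phosphatase and regulators or relatives of these. It left out Eif2ak3 and Ppp1r15a, which were counted with the pathway genes and were both called higher after CrOE vesicles. Of the 17 genes 1 was higher and 4 lower after shCon vesicles (18% and 20.2% of all genes). After shCr vesicles 2 were higher and 2 lower (18.4% and 18.8%). The count of 4 lower is near the share of all genes. These counts depended on single libraries: after shCon vesicles 1 was lower without untreated replicate 1 or 3 or shCon replicate 1 or 3, 2 without shCon replicate 2, and 2 were higher without shCr replicate 1. After shCr vesicles 5 were lower without shCr replicate 1, and 1 was higher without untreated replicate 1 or 3 or shCr replicate 3. After CrOE vesicles 8 were higher and 2 lower (36.7% and 37% of all genes). Dnajc3, an ER co-chaperone that restrains PERK, rose by 2.85 there and Eif2b3, a subunit of the eIF2 exchange factor, by 1.38. The kinases Eif2ak2, which encodes the double-stranded RNA sensor PKR, and Eif2ak4, which encodes the amino acid sensor GCN2, fell (-1.72 and -0.69). Impact, an inhibitor of GCN2, rose in all vesicle groups (0.56, 0.64 and 0.59).

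**Figure D5:**
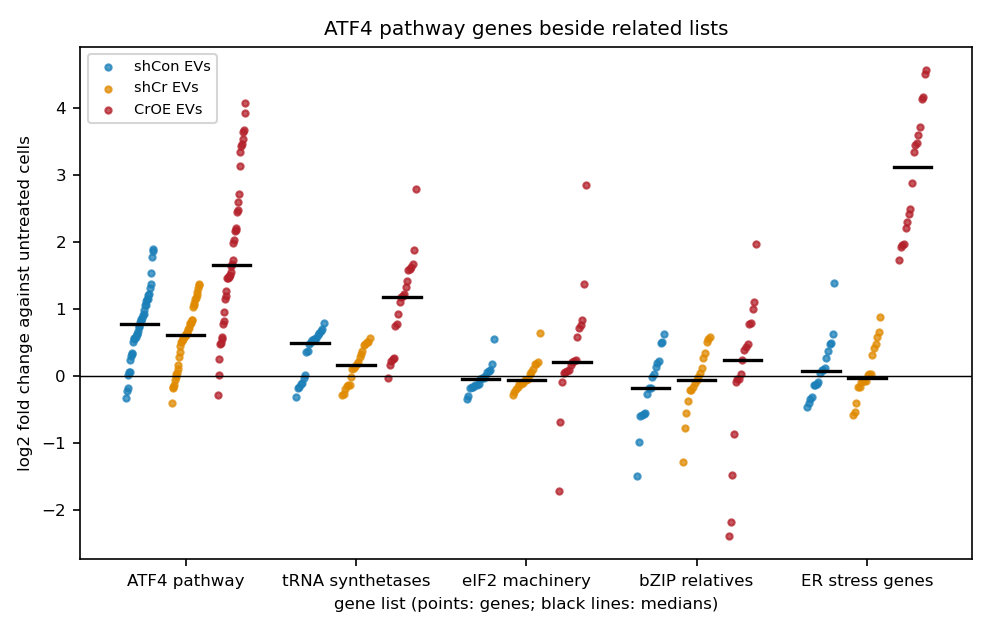
Log2 fold change against untreated cells (vertical axis) of each tested gene in 5 lists (horizontal axis), by vesicle type, with points spread sideways by rank and black lines for medians. The ATF4 pathway medians are 0.78, 0.61 and 1.66 after shCon, shCr and CrOE vesicles, while the ER stress list has medians of 0.066, -0.026 and 3.115.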

How the data were processed

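RNA of 12 libraries of 3T3 cells was measured, 3 in each of 4 groups; the kit was directional with poly(A) selection, per the labels' protocols. The authors deposited estimated counts per gene symbol, not scaled between libraries; 39.8% of values were not whole. The submitters' processing notes name featureCounts and mm39, without versions or settings; the annotation and use of strand are not given in the sources used here. No 2 libraries were identical.

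The design had assumed whole counts; values were rounded and the same test kept. Genes passing filterByExpr (14279) were scaled by TMM and tested with edgeR 4.0.16 in R 4.3.3 (glmQLFit, glmQLFTest) on all libraries, one mean for each group (8 residual degrees of freedom). SEs come from the F statistic. The test was checked on simulated counts. Correlations between libraries were taken on log2 CPM (prior count 2). The table held 27 symbols turned into dates; none is named.

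The rule named Atf4 always, other members in a comparison when called with a log2 fold change of at least 1 in size (at most the 10 largest each way), and in related lists at most 3 called genes each way (2 outside CrOE against untreated cells); further members were added after their values were seen, to account for all. Members and lists were chosen with earlier results of these data known. GENCODE M21 gave exon overlaps and shared sequence. Alternatives were other size factors, library totals, DESeq2 1.42.0, other count filters, a replicate block, each library left out and models of only 2 groups. Same-numbered libraries correlated at -0.204 to 0.315 in their deviations from group means, so numbers were not taken as pairs.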

Additional observations from a re-analysis of the deposited data

Results flagged for a closer look

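Genes called in opposite directions against untreated cells after different vesicles, where the direct comparison of those vesicles was also a call by edgeR, were looked at again. Shmt1 was lower after shCon vesicles and higher after CrOE vesicles. CrOE exceeded shCon vesicles by a log2 fold change of 0.72 (adjusted p = 5.77e-07, edgeR), higher in 3 of 3 libraries. The fall of Shmt1 after shCon vesicles was no call without untreated replicate 2, shCon replicate 1 or shCon replicate 2 (adjusted p up to 0.0793, edgeR). Mthfd1 was lower after shCon and shCr vesicles and higher after CrOE vesicles, with direct differences of 0.59 (adjusted p = 2.96e-06) and 0.65 (adjusted p = 9.26e-07). Slc1a5 was higher after shCon and shCr vesicles and lower after CrOE vesicles, with direct differences of -1.03 (adjusted p = 3.26e-08) and -0.90 (adjusted p = 1.11e-07). Groups of 3 libraries were too small for a search for single outlying libraries.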

How the results depend on the processing

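Under 19 alternative settings per comparison, 4560 values of the 40 genes were refitted, and 4456 kept their direction and their side of the threshold. The other settings weakened 52 below the threshold and raised 29 past it. A further 23 changed sign, all of them without a call in either fit. Counts of pathway genes called higher were 32 to 33 after shCon vesicles, 27 to 30 after shCr vesicles and 38 in every setting after CrOE vesicles. Between shCr and shCon vesicles 12 to 16 were lower and 1 higher in each setting. For all genes in that comparison the 2-group model called 641, and leaving out a library gave 632 to 1396. Leaving out a library gave 1 to 3 pathway genes lower after shCon vesicles, 1 to 3 after shCr vesicles and 1 to 2 for CrOE against shCr vesicles. The count after shCr vesicles was also 1 in the 2-group model and 1 without a low-count filter. The cause of these shifts was not tested.

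Values that changed sign, with their range when a library was left out, were as follows for shCr against shCon vesicles: Atf4 -0.055 to 0.007, Chac1 -0.133 to 0.001, Ddit4 -0.054 to 0.038, Eif2ak3 -0.033 to 0.012, Got1 -0.072 to 0.039, Psph -0.083 to 0.035, Sesn2 -0.072 to 0.059 and Slc7a3 -0.274 to 0.136. Against untreated cells they were Atf3 after shCon vesicles (-0.009 to 0.157), Aldh18a1 (-0.027 to 0.082) and Pycr1 (-0.086 to 0.048) after shCr vesicles, and Ddit4 after CrOE vesicles (-0.043 to 0.063, and -0.018 with at least 10 counts in every library).

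Same-numbered libraries were not shown to be paired: 5 of 12 libraries correlated best with a library of their own number. With the replicate block, all genes called were 5691, 5529 and 10657 against untreated cells after shCon, shCr and CrOE vesicles, and 1281 between shCr and shCon vesicles; pathway genes called higher were 33, 29 and 38, and 14 were lower with shCr than shCon vesicles. Cbs and Gdf15 were limited by depth, with at most 4 and 235 counts in a library.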

Other observations

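Genes of neighbouring programmes were counted in the same fit; the shares of all tested genes called higher and lower were 18% and 20.2% after shCon vesicles, 18.4% and 18.8% after shCr vesicles and 36.7% and 37% after CrOE vesicles. Of 12 NRF2 targets, which answer oxidative stress and share Slc7a11 with ATF4, 9 were called higher and 1 lower after shCon vesicles, 10 higher after shCr vesicles, and 10 higher and 1 lower after CrOE vesicles, with medians of 0.35, 0.32 and 0.84. Gclc, the catalytic subunit of glutathione synthesis, rose most, by 1.08, 1.13 and 3.12 on the log2 scale, from 15.7 ± 0.958 CPM in untreated cells to 136 ± 0.844 after CrOE vesicles (SD, n = 3). Txnrd1, a thioredoxin reductase, rose by 2.04 and Hmox1, the heme-degrading enzyme, by 1.89 after CrOE vesicles, where Prdx1, a peroxidase, fell (-0.39). The fall of Prdx1 after shCon vesicles was a call in 4 of the 12 fits that left out 1 library. Of 12 p53 targets, 6 were higher and 1 lower after shCon vesicles and 8 higher after shCr vesicles, and 2 higher and 5 lower after CrOE vesicles, where the count of lower genes is near the share of all genes. Sesn1, a paralogue of Sesn2, and Ccng1, a cyclin, fell after CrOE vesicles (-2.26 and -1.22), while Mdm2, the ligase for p53, rose by 0.71.

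Of 15 tested amino acid carriers outside the ATF4 list, to be read against the same shares, 5 were higher and 7 lower after shCon vesicles, 4 higher and 7 lower after shCr vesicles and 4 higher and 8 lower after CrOE vesicles. Slc1a3, a glutamate transporter, went from 62.1 ± 20.2 CPM in untreated cells to 13.5 ± 0.735 after shCon vesicles, 15.2 ± 3.04 after shCr vesicles and 2.23 ± 0.280 after CrOE vesicles. Slc38a4 and Slc43a2 fell after CrOE vesicles (-2.88 and -2.78), while Slc38a1, a glutamine carrier, rose by 1.57. The 4 called higher after shCr vesicles were 2 without untreated replicate 3. Among 17 bZIP partners and relatives of ATF4, again beside those shares, 4 were higher and 6 lower after shCon vesicles and 9 higher and 4 lower after CrOE vesicles. After shCr vesicles calls also went both ways. The largest rises there were those of Atf6 (0.58) and Nfe2l1 (0.56), and the largest falls those of Fos and Junb (-0.77). Fos fell in all vesicle groups (-1.496, -1.28 and -2.39). After CrOE vesicles Cebpg, a dimer partner of ATF4, rose by 1.11 and Cebpd fell (-1.48), while Cebpa and Cebpb were no calls.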
